A study of Mus musculus with 18 samples.

Results

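The 37 genes carried by the mouse mitochondrial genome were followed across 18 heart libraries: 13 mRNAs, 2 rRNAs and 22 tRNAs. They were chosen as the rows of the deposited gene count table whose chromosome is MT, which are 37 of its 54532 rows. In both sets of hearts, mitochondrial counts made up a smaller share of the library in animals labelled Lmna shRNA than in controls. The share was higher again where the shRNA was labelled as given together with lamin C, and less so where it was labelled as given together with lamin A. Tissue came from the apex of the heart of mice whose genotype is labelled wild type, and RNA was selected on poly-T beads and sequenced with strand information.

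The groups had 3 libraries each and fell into 2 sets that the labels call Batch LC and Batch LA. In set LC the groups were Lmna shRNA with lamin C (lamin C hearts), Lmna shRNA alone and control; in set LA they were Lmna shRNA with lamin A (lamin A hearts), Lmna shRNA alone and control. The shRNA is named L881, and the series describes delivery by a recombinant adeno-associated virus of serotype 9, which reaches the heart efficiently. The labels used here do not say what the control animals received, nor the age or sex of any animal. The heart cells that took up the virus are not named either, so each value is an average over all cells of the apex. Each set was compared within itself, and the animals of the 2 sets were set against each other only through the difference of their effects.

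The mitochondrial genome is a small circle present in many copies per cell. It is transcribed from both strands into long precursors, from which the tRNAs are cut out and the mRNAs and rRNAs between them released. The mRNAs encode subunits of complexes I, III and IV of the respiratory chain and of the ATP synthase, complex V, while the remaining subunits, and every enzyme that copies, transcribes, processes and translates the mitochondrial genome, come from the nucleus. Most mitochondrial mRNAs end in a poly(A) tail and the rRNAs in a short one, while mature tRNAs have none. Selection on poly-T beads therefore sets how much of each class enters a library, and levels are compared below between groups for the same gene, or between genes of the same class. Cardiac muscle is rich in mitochondria, and these transcripts are among the most abundant in heart RNA.

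Library totals lay between 31418657 and 41259968 counts. Lmna, the targeted gene, is given first as a check of the labels. It had 1317, 1064 and 1375 CPM (counts scaled to library size) in lamin C hearts, 136.8, 133.5 and 114.8 in shRNA-labelled hearts and 122.4, 128.5 and 119.8 in controls of set LC. In set LA it had 555.5, 536.9 and 501.5 CPM in lamin A hearts, 126.9, 121.7 and 130.3 in shRNA-labelled hearts and 120, 119.6 and 111.7 in controls. Lmna was thus high in both lamin groups and no lower in the libraries labelled shRNA than in their controls, with log2 fold changes of 0.06 ± 0.08 in set LC (adjusted p = 0.578) and 0.11 ± 0.08 in set LA (adjusted p = 0.258). For that reason these libraries are called shRNA-labelled throughout: their gene-level Lmna count does not show a knockdown, whatever the protein level was.

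Mitochondrial rows took 23.19, 24.78 and 24.13% of counts in the 3 lamin C hearts, 14.74, 15.62 and 12.96% in the shRNA-labelled hearts and 25.45, 25.44 and 25.19% in the controls of set LC. In set LA they took 20.31, 22.58 and 21.08% in lamin A hearts, 14.11, 15.06 and 14.07% in shRNA-labelled hearts and 26.81, 27.02 and 26.38% in controls. The shRNA-labelled libraries lay below every other library of their own set, lamin C hearts lay just under their controls, and lamin A hearts lay between the other groups without overlap. Group means were 24.0% ± 0.797 in lamin C hearts, 14.4% ± 1.35 in shRNA-labelled hearts and 25.4% ± 0.149 in controls of set LC (SD, n = 3 each). They were 21.3% ± 1.16 in lamin A hearts, 14.4% ± 0.562 in shRNA-labelled hearts and 26.7% ± 0.326 in controls of set LA (SD, n = 3 each). The gap between lamin C hearts and controls was less than 2 SDs of the lamin C hearts, while the other gaps within a set were several times the SDs. Per 100 counts on nuclear genes, there were 31.6 ± 1.38 mitochondrial counts in lamin C hearts, 16.9 ± 1.84 in shRNA-labelled hearts and 34.0 ± 0.267 in controls of set LC. The same ratio was 27.1 ± 1.88 in lamin A hearts, 16.8 ± 0.77 in shRNA-labelled hearts and 36.5 ± 0.606 in controls of set LA. These ratios need no scaling between libraries, and no test was made on them because they are sums over the chosen genes. The 95% exact Clopper-Pearson interval of a single library's share was at most 0.03 percentage points wide, and it covers counting error only. In whole tissue, fewer cells rich in mitochondria and less mitochondrial RNA per cell cannot be told apart.

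**Figure D1:**
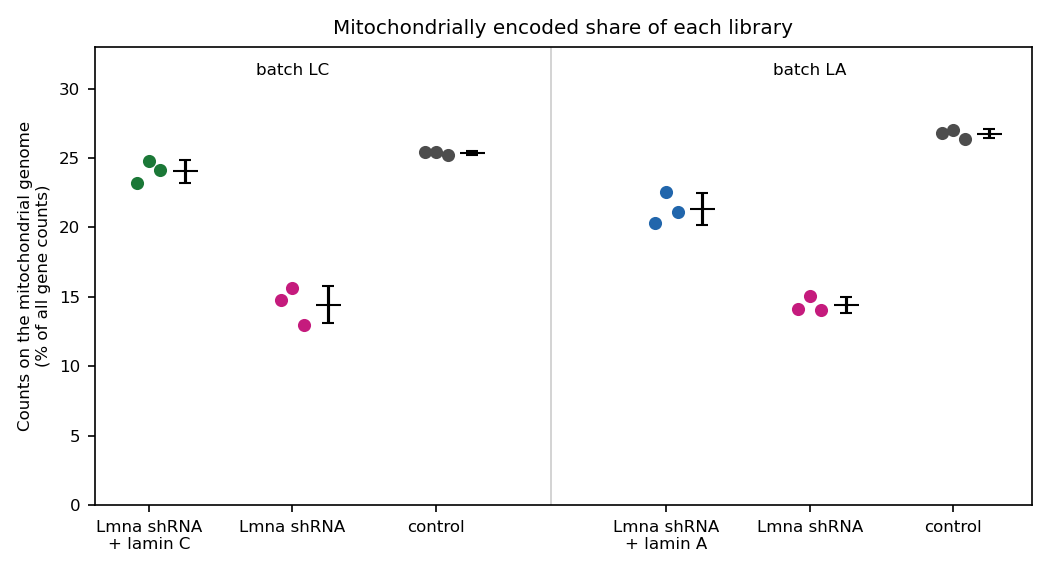
Share of all counted reads that fell on the 37 mitochondrial rows, in percent, for each of the 18 libraries (points) with the group mean and SD (n = 3) in sets LC and LA. The shRNA-labelled libraries, at 12.96% to 15.62%, sit below the lamin C and lamin A libraries, at 20.31% to 24.78%, and the controls, at 25.19% to 27.02%.

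The mRNA rows made up most of the mitochondrial counts in every group, between 96.7% and 97.3% on average. The rRNA rows held 3.27% of mitochondrial counts in lamin C hearts, 2.68% in shRNA-labelled hearts and 3.01% in controls of set LC. They held 2.75% in lamin A hearts, 2.77% in shRNA-labelled hearts and 3.04% in controls of set LA. The rRNA part averaged less in shRNA-labelled hearts than in controls; the libraries of these groups overlapped in set LC and did not in set LA. The tRNA rows were scarce after poly-T selection, with 0.0617% ± 0.00242 of mitochondrial counts in lamin C hearts, 0.0414% ± 0.00084 in shRNA-labelled hearts and 0.0754% ± 0.00775 in controls of set LC (SD, n = 3 each). Their share was 0.0584% ± 0.00487 in lamin A hearts, 0.0471% ± 0.00465 in shRNA-labelled hearts and 0.0814% ± 0.003 in controls of set LA (SD, n = 3 each). Within both sets, no control library's tRNA share overlapped with one of a shRNA-labelled heart. The 9 genes on the minus strand, which are mt-Nd6 and 8 tRNAs, together held between 0.0796% and 0.0988% of mitochondrial counts in the 6 group means.

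Of the 37 rows, 29 had enough counts to be tested: the 13 mRNAs, the 2 rRNAs and 14 of the 22 tRNAs. The 8 tRNA rows that were not tested were mt-Tf, mt-Tv, mt-Ta, mt-Td, mt-Tk, mt-Th, mt-Ts2 and mt-Tl2. No count fell on mt-Tf or mt-Tk in any library, and the highest count of the others in 1 library was 8, for mt-Ta.

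Levels of the mRNAs are given per length as the deposited FPKM (fragments scaled to gene length and library size), with the libraries of a group in order of their replicate numbers. mt-Co1, the catalytic core of complex IV, had 58240, 63160 and 58950 FPKM in lamin C hearts, 31470, 32770 and 26680 in shRNA-labelled hearts and 70960, 70490 and 66760 in controls of set LC. In set LA it had 46690, 54430 and 50160 FPKM in lamin A hearts, 29470, 30530 and 29280 in shRNA-labelled hearts and 70810, 71640 and 71550 in controls. The shRNA-labelled libraries were the lowest of both sets, the controls the highest, and the lamin libraries lay between them without overlap. mt-Cytb, the only mitochondrially encoded subunit of complex III, was next, with 32640, 36700 and 34740 FPKM in lamin C hearts, 18250, 18860 and 15540 in shRNA-labelled hearts and 39820, 38440 and 37180 in controls of set LC. It had 26420, 29750 and 28480 FPKM in lamin A hearts, 17380, 17820 and 16070 in shRNA-labelled hearts and 39690, 40680 and 40300 in controls of set LA. The same order of groups held for it, again with no overlap.

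Among the complex I subunits with the most counts, mt-Nd1, which lies at the joint of the membrane and matrix arms, had 26420, 29470 and 27780 FPKM in lamin C hearts, 13970, 14830 and 11200 in shRNA-labelled hearts and 32370, 31940 and 32580 in controls of set LC. In set LA it had 20380, 23560 and 20210 FPKM in lamin A hearts, 12420, 13400 and 12300 in shRNA-labelled hearts and 33760, 34280 and 34290 in controls. The groups took the same order as for mt-Co1 and did not overlap within a set. mt-Nd2, mt-Nd4 and mt-Nd5 encode the antiporter-like subunits of the membrane arm. mt-Nd2 averaged 21360 ± 1184 FPKM in lamin C hearts, 10210 ± 1512 in shRNA-labelled hearts and 24730 ± 740.3 in controls of set LC, and 18110 ± 1530, 10200 ± 712 and 27080 ± 149.6 in lamin A, shRNA-labelled and control hearts of set LA (SD, n = 3 each). mt-Nd4 averaged 15470 ± 1097 FPKM in lamin C hearts, 7680 ± 814 in shRNA-labelled hearts and 17350 ± 248 in controls of set LC, and 13010 ± 765, 7697 ± 407 and 18520 ± 521 in lamin A, shRNA-labelled and control hearts of set LA. mt-Nd5 averaged 17670 ± 1306 FPKM in lamin C hearts, 8060 ± 1107 in shRNA-labelled hearts and 20740 ± 454 in controls of set LC, and 14640 ± 756, 8351 ± 577 and 22460 ± 186 in lamin A, shRNA-labelled and control hearts of set LA. In every set the group means of these 3 genes kept the order of control above lamin above shRNA-labelled.

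mt-Nd6, the complex I subunit transcribed from the opposite strand to the other mRNAs, was far lower than the genes above in this poly-T selected material. It had 362.4, 445.1 and 344.1 FPKM in lamin C hearts, 262.8, 182.4 and 149.7 in shRNA-labelled hearts and 417.3, 622.2 and 511 in controls of set LC. In set LA it had 302.4, 390.2 and 326.9 FPKM in lamin A hearts, 145.1, 183.5 and 189.8 in shRNA-labelled hearts and 488.6, 577.6 and 441.6 in controls. The shRNA-labelled libraries did not overlap with any other group of their set, but 1 lamin C library was above the lowest control.

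**Figure D2:**
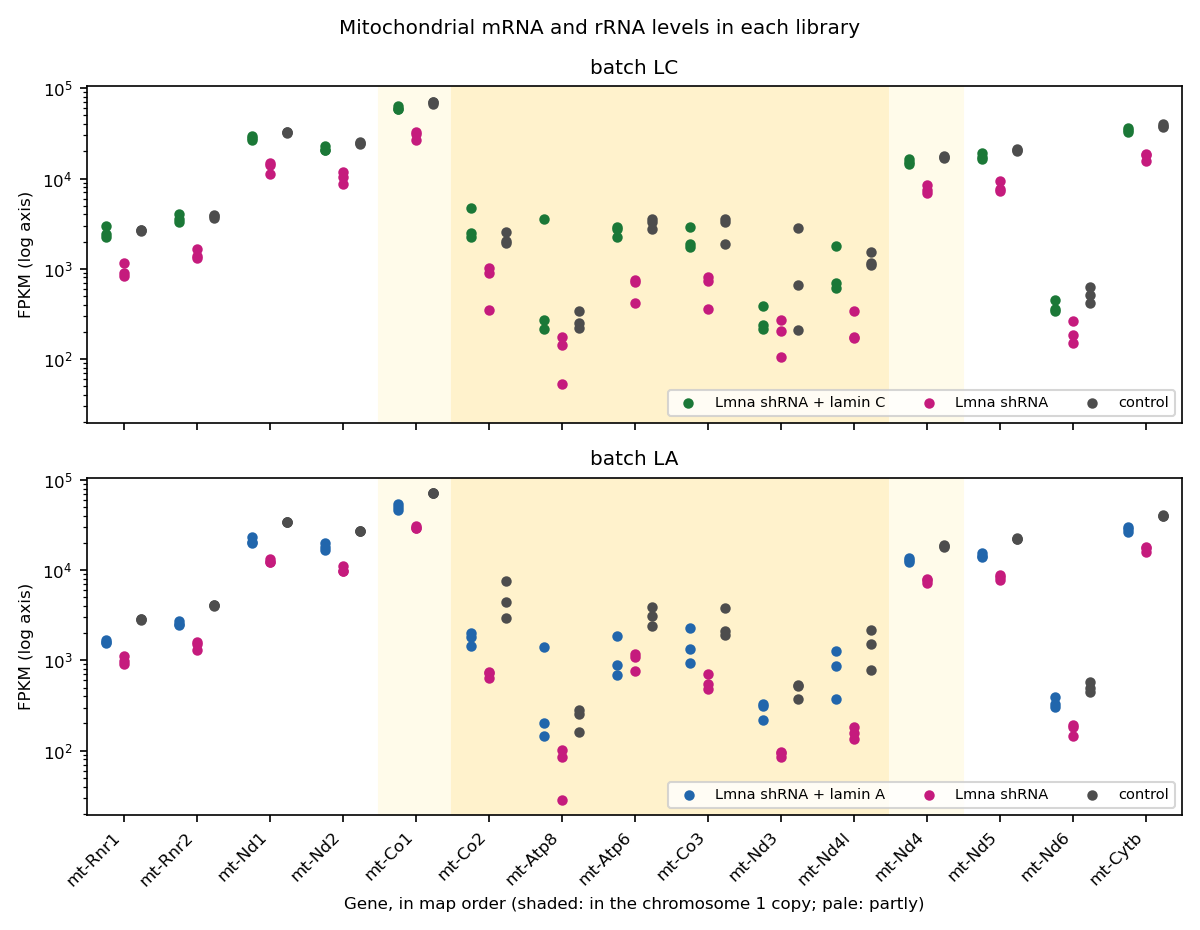
Deposited FPKM (log axis) of the 13 mRNAs and 2 rRNAs in the order of their genes on the mitochondrial genome, with 1 point per library in each group of sets LC and LA; dark shading marks genes inside the stretch copied on chromosome 1 and pale shading genes partly in it. Outside the shading the points of a group sit close together and those of the shRNA-labelled hearts lie lowest, while inside the dark shading single libraries of a group spread widely. Values there run from 28.63 to 7511 FPKM over all its genes, groups and libraries together.

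The 6 remaining mRNAs, mt-Co2, mt-Atp8, mt-Atp6, mt-Co3, mt-Nd3 and mt-Nd4l, are less certain, because they lie in a stretch of the mitochondrial genome with near-identical copies on chromosome 1. GENCODE M21 transcripts of the mm10 build were aligned gene by gene. The matches reach from position 6390 to 11042 of the mitochondrial genome (4653 bases). Their pseudogenes reach from position 24611535 to 24616197 of chromosome 1 (4663 bases), on the minus strand. The bases between these genes were not aligned. The count table has 7 pseudogene rows in this part of chromosome 1. Gm28661, the copy of mt-Co2, matched it over 681 bases with 0 differences, and Gm10925, Gm28437, Gm10222 and Gm28439 matched mt-Atp6, mt-Co3, mt-Nd4l and the first 876 bases of mt-Nd4 with 0 differences. Gm29216 matched 483 bases of mt-Co1 with 1 difference, and Gm28438 matched mt-Nd3 over 345 bases with 1 difference. A short read from such a stretch fits both places, and the labels and processing notes do not say how the authors' counting placed it. Counts of the genes with such a copy may therefore be divided between 2 rows, unevenly from library to library. Both rows were low, however. In controls of set LC mt-Co2 averaged 1507 CPM and Gm28661 665, compared with 109500 for mt-Co1, and mt-Atp8 averaged 56.6. Whether reads were also left out of both rows was not tested. Levels of these 6 mRNAs, and the mitochondrial shares that include them, may therefore be too low. The stretch between the outer ends of the matches, called the copied stretch here, holds 11 of the 37 genes whole. They are these 6 mRNAs and the tRNAs mt-Ts1, mt-Td, mt-Tk, mt-Tg and mt-Tr. For mt-Atp8 and these tRNAs no nuclear match of at least 50 bases at 90% identity was found, so no second row is known for them. mt-Co1 and mt-Nd4 lie partly in the copied stretch, and 24 genes lie outside. Less similar nuclear matches were found as well. They included 1545 bases of mt-Co1 at 97.61% identity (Gm13340) and 510 bases of mt-Nd2 at 96.67% (Gm13339). Pseudogenes of mt-Nd5, mt-Nd6 and mt-Cytb matched at 92.34% to 95.18%, and a transcript of Cep295 matched 62 bases of mt-Tl1 at 93.55%. Their part in the counts was not tested.

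The first 60 bases of mt-Co2, at positions 7013 to 7072 of the mitochondrial genome on the plus strand, are shown because they could not be told from Gm28661, at positions 24615506 to 24615565 of chromosome 1 on the minus strand. A stretch of 32 bases of mt-Nd3, at positions 9459 to 9490 on the plus strand, is shown with its copy in Gm28438, at positions 24613088 to 24613119 of chromosome 1 on the minus strand, because it holds the base that differs, which is in capitals. All are from the mm10 build and are written 5′ to 3′.
mt-Co2 and Gm28661: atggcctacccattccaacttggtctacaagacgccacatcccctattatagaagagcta
mt-Nd3: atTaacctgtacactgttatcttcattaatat
Gm28438: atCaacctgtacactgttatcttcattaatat

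Genes inside the copied stretch varied far more between replicates. Over the 6 groups the coefficient of variation of CPM had a median of 31.6% for the 6 mRNAs inside it (6.84% to 142%), 4.7% for mt-Co1 and mt-Nd4 (0.529% to 10.2%) and 6.3% for the 5 mRNAs and 2 rRNAs outside it (0.575% to 29.2%). mt-Co2, which carries the copper site that receives electrons from cytochrome c, had 2482, 2272 and 4696 FPKM in lamin C hearts, 894, 1010 and 352.1 in shRNA-labelled hearts and 2011, 2528 and 1931 in controls of set LC. It had 1458, 1797 and 2012 FPKM in lamin A hearts, 744.9, 641.4 and 724.4 in shRNA-labelled hearts and 7511, 4445 and 2984 in controls of set LA. Single libraries stood well apart from their own group, as in the controls of set LA. mt-Atp8, a small subunit of complex V, had 213.4, 273.7 and 3539 FPKM in lamin C hearts, 142.3, 173 and 52.77 in shRNA-labelled hearts and 219.3, 343.5 and 252.3 in controls of set LC. It had 200.6, 146.8 and 1395 FPKM in lamin A hearts, 101.2, 28.63 and 84.42 in shRNA-labelled hearts and 257.6, 159.9 and 281.6 in controls of set LA. Replicate 3 of lamin C and replicate 3 of lamin A were far above every other library, and its reading frame also overlaps that of mt-Atp6. mt-Nd3 varied in the same way, with 211, 664.9 and 2827 FPKM in the controls of set LC alone.

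The question put to each set was how the shRNA-labelled hearts differed from their controls. Of the 29 rows tested, 23 were lower in shRNA-labelled than in control hearts of set LC, against 29.6% of all 17876 genes tested that were lower. In set LA 24 of the 29 were lower, against 29% of all genes tested. The 8 rows with too few counts stayed outside both numbers. The 7 mRNAs outside or partly in the copied stretch were lower in both sets, with a median log2 fold change of -1.27 in set LC (-1.37 to -1.12) and -1.40 in set LA (-1.53 to -1.23). The median over all genes tested was 0.05 in both sets. Each log2 fold change here and below is followed by its standard error, from edgeR's quasi-likelihood test with Benjamini-Hochberg adjustment over all genes tested, 3 libraries a group.

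For complex I, mt-Nd1 changed by -1.27 ± 0.08 (adjusted p = 8.02e-11) in set LC and -1.42 ± 0.08 (adjusted p = 2.17e-11) in set LA. mt-Nd2 changed by -1.27 ± 0.09 and -1.40 ± 0.09, mt-Nd4 by -1.17 ± 0.07 and -1.26 ± 0.07, and mt-Nd5 by -1.36 ± 0.08 and -1.42 ± 0.08 in sets LC and LA. mt-Nd6, from the other strand, fell with them, at -1.37 ± 0.18 (adjusted p = 1.47e-06) in set LC and -1.53 ± 0.18 (adjusted p = 3.9e-07) in set LA. How counting treated strand is not stated, so the mt-Nd6 row may also hold reads from the opposite strand. Inside the copied stretch, mt-Nd3 changed by -2.66 ± 0.58 and -2.38 ± 0.58, and mt-Nd4l by -2.46 ± 0.44 and -3.23 ± 0.46, with standard errors several times those of the genes outside it. In set LC the mt-Nd3 libraries overlapped, at 37.45 to 96.94 CPM in shRNA-labelled hearts and 74.92 to 1004 CPM in controls.

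mt-Cytb of complex III was 2.18-fold lower in shRNA-labelled hearts of set LC, a log2 fold change of -1.12 ± 0.07 (adjusted p = 4.51e-11), and changed by -1.23 ± 0.07 (adjusted p = 1.71e-11) in set LA. mt-Co1 of complex IV was 2.28-fold lower in set LC, at -1.19 ± 0.07 (adjusted p = 2.05e-11), and 2.38-fold lower in set LA, at -1.25 ± 0.07 (adjusted p = 1.2e-11). The other complex IV subunits lie in the copied stretch: mt-Co2 changed by -1.51 ± 0.34 and -2.82 ± 0.35, and mt-Co3 by -2.18 ± 0.35 and -2.17 ± 0.35. Of the complex V subunits, mt-Atp6, part of the proton channel, changed by -2.34 ± 0.29 (adjusted p = 9.69e-07) in set LC and -1.64 ± 0.29 (adjusted p = 6.11e-05) in set LA. mt-Atp8 did not pass the test in either set, at -1.14 ± 0.88 (adjusted p = 0.273) and -1.70 ± 0.91 (adjusted p = 0.115), and it was the only mRNA of the 13 that did not.

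The rRNAs form the RNA core of the mitochondrial ribosome, mt-Rnr1 of the small and mt-Rnr2 of the large subunit. mt-Rnr1 had 2267, 2955 and 2450 FPKM in lamin C hearts, 1157, 838.7 and 906.2 in shRNA-labelled hearts and 2713, 2597 and 2668 in controls of set LC. In set LA it had 1610, 1572 and 1690 FPKM in lamin A hearts, 904.5, 1122 and 989.7 in shRNA-labelled hearts and 2903, 2792 and 2845 in controls. Lamin C libraries overlapped with controls, whereas lamin A libraries lay between the other groups. mt-Rnr2 had 3276, 4088 and 3559 FPKM in lamin C hearts, 1639, 1319 and 1372 in shRNA-labelled hearts and 3880, 3669 and 3946 in controls of set LC. It had 2437, 2498 and 2697 FPKM in lamin A hearts, 1307, 1601 and 1529 in shRNA-labelled hearts and 4094, 4093 and 4051 in controls of set LA, with the same pattern of overlap. In shRNA-labelled against control hearts, mt-Rnr1 changed by -1.45 ± 0.11 (adjusted p = 4.25e-10) in set LC and -1.49 ± 0.11 (adjusted p = 3.3e-10) in set LA, and mt-Rnr2 by -1.40 ± 0.09 (adjusted p = 7.21e-11) and -1.46 ± 0.09 (adjusted p = 4.95e-11).

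Of the 14 tRNA rows tested, 9 were lower in shRNA-labelled hearts of set LC and 10 in set LA, against 29.6% and 29% of all genes tested. The 4 with the most counts lie outside the copied stretch on the plus strand: mt-Tl1 directly after mt-Rnr2, mt-Ti and mt-Tm between mt-Nd1 and mt-Nd2, and mt-Tw after mt-Nd2. They read the codons of leucine, isoleucine, methionine and tryptophan. Because mature tRNAs carry no poly(A) tail, counts on these rows may come from precursors in which a tRNA is still joined to a polyadenylated neighbour as well as from the tRNA itself, and the files do not tell them apart. Their genes are shown because these rows also changed relative to the mRNAs around them, as given further on. The sequences are from GENCODE M21 transcripts of mm10, at positions 4950 to 5016 (mt-Tw), 2676 to 2750 (mt-Tl1), 3845 to 3913 (mt-Tm) and 3706 to 3774 (mt-Ti) of the mitochondrial genome. They are written 5′ to 3′ with the anticodon in capitals.
mt-Tw: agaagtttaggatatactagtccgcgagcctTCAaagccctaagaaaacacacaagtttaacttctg
mt-Tl1: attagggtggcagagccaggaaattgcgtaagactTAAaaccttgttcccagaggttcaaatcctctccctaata
mt-Tm: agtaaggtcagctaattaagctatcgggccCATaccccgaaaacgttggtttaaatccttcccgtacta
mt-Ti: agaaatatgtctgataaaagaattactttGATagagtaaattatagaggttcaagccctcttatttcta

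mt-Tw had 953, 1232 and 1029 FPKM in lamin C hearts, 338.5, 325.3 and 295.6 in shRNA-labelled hearts and 1463, 1410 and 1763 in controls of set LC. In set LA it had 789.1, 792 and 793.2 FPKM in lamin A hearts, 341.7, 351.8 and 354.9 in shRNA-labelled hearts and 2018, 1626 and 1780 in controls. The 3 groups of each set did not overlap. mt-Tm had 228.1, 292.4 and 277.6 FPKM in lamin C hearts, 55.95, 47.23 and 27.55 in shRNA-labelled hearts and 412.1, 345.7 and 435.5 in controls of set LC, and 200.8, 142 and 168.6 FPKM in lamin A hearts, 87.2, 89.69 and 53.9 in shRNA-labelled hearts and 420.5, 360.2 and 449.6 in controls of set LA. Its groups did not overlap either. In counts, mt-Tm had 484, 754 and 659 in lamin C hearts, 191, 125 and 77 in shRNA-labelled hearts and 888, 695 and 857 in controls of set LC, so its values rest on far fewer reads than those of the mRNAs.

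In shRNA-labelled against control hearts, mt-Tw changed by -2.26 ± 0.10 (adjusted p = 7.73e-13) in set LC and -2.36 ± 0.10 (adjusted p = 7.2e-13) in set LA. mt-Tm changed by -3.17 ± 0.21 (adjusted p = 9.35e-11) and -2.41 ± 0.19 (adjusted p = 2.05e-09), the largest change of the 29 rows in set LC. mt-Ti changed by -2.72 ± 0.25 and -2.55 ± 0.25, and mt-Tl1 by -1.79 ± 0.10 and -1.79 ± 0.10, in sets LC and LA. The other tRNA rows lower in both sets were mt-Te, mt-Tg, mt-Tr, mt-Ts1 and mt-Tt, at between -2.03 and -1.49 in set LC and between -2.46 and -1.81 in set LA. mt-Ty was lower in set LA, at -1.79 ± 0.73 (adjusted p = 0.0405), and did not pass in set LC, at -0.74 ± 0.80 (adjusted p = 0.439). Its call in set LA rests on very few reads, with 1 to 5 counts a library in shRNA-labelled hearts and 4 to 13 in controls. The rows mt-Tc, mt-Tn, mt-Tp and mt-Tq did not pass the test in either set.

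**Figure D3:**
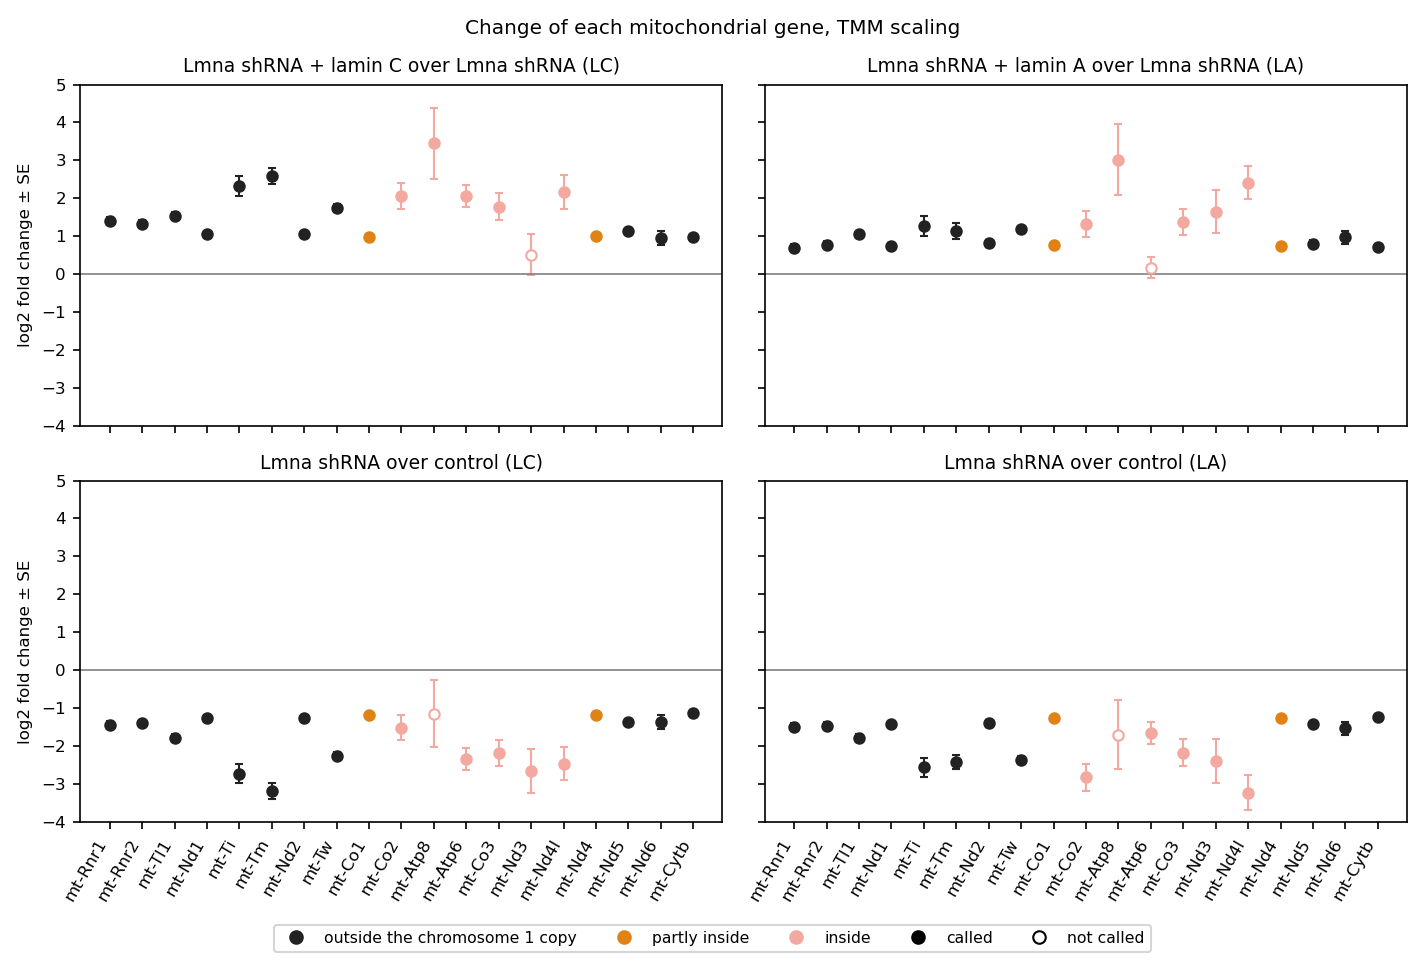
Log2 fold change (points) and its standard error (bars) of the 13 mRNAs, 2 rRNAs and 4 most abundant tRNAs with trimmed mean of M-values (TMM) scaling, for lamin C or lamin A over shRNA-labelled hearts and for shRNA-labelled over control hearts in sets LC and LA; filled points have an adjusted p under 0.05, and colour marks whether a gene lies in the stretch copied on chromosome 1. The 7 mRNAs outside or partly in that stretch lie close together, between -1.53 and -1.12 for shRNA-labelled over control and between 0.72 and 1.13 for lamin over shRNA-labelled hearts.

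The effect of adding a lamin was read against the shRNA-labelled hearts of the same set. In set LC 21 of the 29 rows were higher in lamin C than in shRNA-labelled hearts, against 25.7% of all genes tested that were higher. In set LA 20 of the 29 were higher in lamin A hearts, against 16.1% of all genes tested. The 7 mRNAs outside or partly in the copied stretch had a median log2 fold change of 1.01 with lamin C (0.95 to 1.13) and 0.76 with lamin A (0.72 to 0.97), and were called in both. The median over all genes tested was -0.04 with lamin C and 0.00 with lamin A.

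mt-Co1 rose by 0.98 ± 0.07 (adjusted p = 7.13e-10) with lamin C, which is 1.98-fold, and by 0.76 ± 0.07 (adjusted p = 3.13e-07) with lamin A, which is 1.69-fold. mt-Cytb rose by 0.98 ± 0.07 with lamin C and 0.72 ± 0.07 with lamin A, mt-Nd1 by 1.06 ± 0.08 and 0.75 ± 0.08, and mt-Nd2 by 1.06 ± 0.08 and 0.82 ± 0.08. mt-Nd4 rose by 1.01 ± 0.07 with lamin C and 0.75 ± 0.07 with lamin A, mt-Nd5 by 1.13 ± 0.08 and 0.81 ± 0.08, and mt-Nd6 by 0.95 ± 0.18 and 0.97 ± 0.18. These genes of complexes I, III and IV thus rose by between 0.95 and 1.13 with lamin C and by between 0.72 and 0.97 with lamin A, whichever strand they lie on. For mt-Nd6 the limit on strand given above holds here too. The rRNA mt-Rnr1 rose by 1.40 ± 0.11 with lamin C and 0.69 ± 0.10 with lamin A, and mt-Rnr2 by 1.33 ± 0.09 and 0.78 ± 0.09.

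In the copied stretch, mt-Co2 changed by 2.06 ± 0.34 with lamin C and 1.32 ± 0.34 with lamin A, mt-Co3 by 1.78 ± 0.35 and 1.38 ± 0.34, and mt-Nd4l by 2.17 ± 0.44 and 2.41 ± 0.44. mt-Atp8 changed by 3.45 ± 0.93 and 3.02 ± 0.93, values that rest on 1 high library in each lamin group. mt-Nd3 did not pass with lamin C, at 0.52 ± 0.55 (adjusted p = 0.444), and changed by 1.65 ± 0.57 (adjusted p = 0.033) with lamin A. mt-Atp6 rose with lamin C, by 2.06 ± 0.29 (adjusted p = 6.37e-06), and did not pass with lamin A, at 0.17 ± 0.28 (adjusted p = 0.697). Of the 14 tRNA rows, 7 were higher with lamin C and 6 with lamin A, against 25.7% and 16.1% of all genes tested. mt-Tw rose by 1.74 ± 0.10 with lamin C and 1.18 ± 0.10 with lamin A, mt-Tm by 2.59 ± 0.21 and 1.14 ± 0.20, mt-Ti by 2.33 ± 0.26 and 1.27 ± 0.26, and mt-Tl1 by 1.53 ± 0.10 and 1.05 ± 0.10.

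Set against controls rather than shRNA-labelled hearts, the lamin groups differed in how many rows still passed. In lamin C hearts 5 of the 29 rows were lower than in controls, against 6.18% of all genes tested that were lower. Of the 7 mRNAs outside or partly in the copied stretch, none was called, and their median log2 fold change was -0.21 (-0.43 to -0.15). mt-Co1 stood at -0.20 ± 0.07 (adjusted p = 0.0501), just short of the threshold, and mt-Nd6 at -0.43 ± 0.17 (adjusted p = 0.111). The other genes of that group were mt-Nd1 at -0.21 ± 0.08, mt-Nd2 at -0.21 ± 0.08, mt-Nd4 at -0.16 ± 0.07, mt-Nd5 at -0.23 ± 0.08 and mt-Cytb at -0.15 ± 0.07. All of these estimates are below 0, so the absence of a call does not show that lamin C hearts had control levels. The rRNAs were at -0.05 ± 0.10 for mt-Rnr1 and -0.07 ± 0.09 for mt-Rnr2. The 5 rows called were mt-Tw at -0.52 ± 0.09 (adjusted p = 0.000839), mt-Tm at -0.58 ± 0.18 (adjusted p = 0.0344), mt-Tt at -0.90 ± 0.27 (adjusted p = 0.0316), mt-Ts1 at -1.34 ± 0.42 (adjusted p = 0.0361) and the mRNA mt-Nd3 at -2.14 ± 0.56 (adjusted p = 0.014). Of these, mt-Ts1 and mt-Nd3 lie in the copied stretch, and the mt-Nd3 call was lost when its counts were added to those of Gm28438, at -1.72 ± 0.62 (adjusted p = 0.0692). The mt-Nd3 libraries of the compared groups also overlapped, at 75.41 to 136.4 CPM in lamin C hearts and 74.92 to 1004 CPM in controls. The other mRNAs of the copied stretch did not pass, with mt-Co2 at 0.55 ± 0.33, mt-Atp6 at -0.28 ± 0.28, mt-Co3 at -0.41 ± 0.34, mt-Nd4l at -0.29 ± 0.42 and mt-Atp8 at 2.31 ± 0.88. The count of 5 fell to 2 without lamin C replicate 1 or 3 and also without control replicate 3.

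In lamin A hearts 18 of the 29 rows were lower than in controls, against 22.1% of all genes tested that were lower. They comprised 9 mRNAs, the 2 rRNAs and 7 tRNAs. mt-Co1 was 1.41-fold lower, at -0.50 ± 0.07 (adjusted p = 7.11e-06), and mt-Cytb was at -0.51 ± 0.07 (adjusted p = 5.9e-06). mt-Nd1 was at -0.67 ± 0.08, mt-Nd2 at -0.58 ± 0.08, mt-Nd4 at -0.50 ± 0.07, mt-Nd5 at -0.61 ± 0.08 and mt-Nd6 at -0.56 ± 0.18, each of them called. The median of the 7 mRNAs outside or partly in the copied stretch was -0.56 (-0.67 to -0.50). mt-Rnr1 changed by -0.80 ± 0.10 (adjusted p = 3.09e-06) and mt-Rnr2 by -0.68 ± 0.09 (adjusted p = 3.58e-06), while mt-Tw changed by -1.19 ± 0.09 (adjusted p = 6.92e-09), mt-Tm by -1.26 ± 0.18, mt-Ti by -1.28 ± 0.23 and mt-Tl1 by -0.74 ± 0.09. In the copied stretch, mt-Co2 was at -1.50 ± 0.34 and mt-Atp6 at -1.46 ± 0.29, both called. mt-Co3 at -0.79 ± 0.34, mt-Nd3 at -0.72 ± 0.55, mt-Nd4l at -0.82 ± 0.42 and mt-Atp8 at 1.33 ± 0.87 did not pass. With the counts of Gm28437 added, mt-Co3 was called, at -0.79 ± 0.29 (adjusted p = 0.0294).

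Because the labels give each of the 2 sets its own controls, effects were compared between sets by testing the difference itself. For the difference between shRNA-labelled and control hearts, edgeR called 0 of the 29 rows as unlike between sets LC and LA, against 0.00559% of all genes tested. At an unadjusted p under 0.05 there were 2 of 29, and DESeq2 called 0. For mt-Co1 the difference of the effects was 0.06 ± 0.10, for mt-Nd1 0.15 ± 0.11, for mt-Cytb 0.10 ± 0.10 and for mt-Tw 0.10 ± 0.14. For the other genes outside or partly in the copied stretch it was 0.13 ± 0.12 for mt-Nd2, 0.09 ± 0.10 for mt-Nd4, 0.06 ± 0.11 for mt-Nd5, 0.16 ± 0.25 for mt-Nd6, 0.04 ± 0.15 for mt-Rnr1 and 0.05 ± 0.12 for mt-Rnr2. Inside it the differences ranged from -0.71 for mt-Atp6 to 1.3 for mt-Co2, with mt-Nd3 at -0.29, mt-Co3 at -0.01, mt-Atp8 at 0.56 and mt-Nd4l at 0.77.

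The lamin C effect over shRNA-labelled hearts was larger than the lamin A effect for 6 of the 29 rows, against 8.84% of all genes tested that were higher in this difference. Both rRNAs and 3 tRNAs were among the 6. The difference was 0.71 ± 0.15 (adjusted p = 0.00214) for mt-Rnr1, 0.55 ± 0.12 (adjusted p = 0.00423) for mt-Rnr2, 0.56 ± 0.14 (adjusted p = 0.00662) for mt-Tw, 0.48 ± 0.13 (adjusted p = 0.0176) for mt-Tl1 and 1.45 ± 0.29 (adjusted p = 0.00152) for mt-Tm. The sixth was mt-Atp6 in the copied stretch, at 1.89 ± 0.40 (adjusted p = 0.00256). The mRNAs outside or partly in that stretch did not pass, at 0.23 ± 0.10 (adjusted p = 0.115) for mt-Co1, 0.31 ± 0.11 (adjusted p = 0.0633) for mt-Nd1 and 0.26 ± 0.10 (adjusted p = 0.0719) for mt-Cytb. mt-Nd2 stood at 0.24, mt-Nd4 at 0.25, mt-Nd5 at 0.32 and mt-Nd6 at -0.02. Of the others inside it, mt-Co2 stood at 0.75, mt-Atp8 at 0.43, mt-Co3 at 0.39, mt-Nd4l at -0.24 and mt-Nd3 at -1.14. Without the second shRNA-labelled library of set LC, the count of rows called was 13 rather than 6.

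Each lamin group against its own controls gave 11 of the 29 rows a higher value with lamin C than with lamin A, against 7.29% of all genes tested that were higher in this difference. mt-Rnr1 differed by 0.75 ± 0.15 (adjusted p = 0.00197), mt-Rnr2 by 0.61 ± 0.12 (adjusted p = 0.00301), mt-Tw by 0.66 ± 0.13 (adjusted p = 0.0024) and mt-Tl1 by 0.47 ± 0.13 (adjusted p = 0.0188). Of the mRNAs, mt-Nd1 differed by 0.46 ± 0.11 (adjusted p = 0.0104), mt-Nd5 by 0.38 ± 0.11, mt-Nd2 by 0.37 ± 0.12, mt-Cytb by 0.36 ± 0.10, mt-Nd4 by 0.34 ± 0.10 and mt-Co1 by 0.29 ± 0.10 (adjusted p = 0.0495). mt-Nd6 did not pass, at 0.13 ± 0.25. In the copied stretch mt-Co2 was called, at 2.05 ± 0.47 (adjusted p = 0.00631), while mt-Atp6 at 1.18, mt-Co3 at 0.38, mt-Atp8 at 0.98, mt-Nd4l at 0.53 and mt-Nd3 at -1.42 were not. The count was 6 without the second lamin C library or the second control of set LA, and 7 without lamin A replicate 1 or 3. With library totals alone as the scale it was 5, and of the 7 mRNAs outside or partly in the copied stretch 1 was called, mt-Nd1, compared with 6 with TMM factors. With RLE size factors mt-Co1 also did not pass (edgeR adjusted p = 0.05). The animals that received lamin C and lamin A belong to different sets and differed in their Lmna counts as given above, so the kind of lamin, its amount and the set cannot be told apart.

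How the transcripts changed relative to each other was examined with the mitochondrial total of each library as its size, so that a change common to the mitochondrial transcripts drops out. The abundant mRNAs are themselves most of that total, so an average change near 0 among them follows from the scale. On this scale 1 of the 29 rows was higher and 9 were lower in shRNA-labelled than in control hearts of set LC, against 86.3% and 2.63% of all genes tested, because nuclear genes then stand higher. In set LA 2 were higher and 10 lower, against 89.1% and 1.95%. Of the rows that were lower, 4 in set LC and 3 in set LA were mRNAs inside the copied stretch. The 6 mRNAs inside it had a median of -1.05 in set LC (-1.46 to 0.06) and -0.95 in set LA (-1.90 to -0.31). The share of mt-Co1 in the mitochondrial counts was 37.2% in lamin C, 38.9% in shRNA-labelled and 37.6% in control hearts of set LC, and 38.3% in lamin A, 38.6% in shRNA-labelled and 36.6% in control hearts of set LA. Its composition change in shRNA-labelled against control hearts was 0.05 ± 0.04 in set LC and 0.08 ± 0.04 in set LA. The 7 mRNAs outside or partly in the copied stretch had a median of -0.04 in set LC (-0.14 to 0.11) and -0.07 in set LA (-0.20 to 0.10). Of these mt-Cytb was called, at 0.11 ± 0.05 (adjusted p = 0.0293) and 0.10 ± 0.05 (adjusted p = 0.0457), a small change. mt-Nd1 stood at -0.04 ± 0.05 and -0.09 ± 0.05, mt-Nd5 at -0.12 ± 0.06 and -0.09 ± 0.06, and mt-Nd6 at -0.14 ± 0.16 and -0.20 ± 0.16 in sets LC and LA.

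The tRNA rows with the most counts fell further than the mRNAs beside them. Relative to the mitochondrial total, mt-Tw changed by -1.02 ± 0.10 (adjusted p = 5.79e-09) in shRNA-labelled against control hearts of set LC and by -1.03 ± 0.10 (adjusted p = 4.25e-09) in set LA. mt-Tm changed by -1.95 ± 0.20 (adjusted p = 5.73e-09) and -1.08 ± 0.19 (adjusted p = 1.27e-05), mt-Ti by -1.51 ± 0.24 and -1.22 ± 0.24, and mt-Tl1 by -0.55 ± 0.10 and -0.45 ± 0.10. The rRNAs did not pass on this scale, with mt-Rnr1 at -0.20 ± 0.11 (adjusted p = 0.0782) and -0.17 ± 0.11 (adjusted p = 0.145) and mt-Rnr2 at -0.15 ± 0.09 and -0.13 ± 0.09. The tRNA genes mt-Ti, mt-Tm and mt-Tw lie on either side of mt-Nd2, between positions 3706 and 5016, and mt-Nd2 itself stood at -0.04 ± 0.05 and -0.07 ± 0.05. In set LA mt-Tn, with few counts, was higher, at 1.63 ± 0.70 (adjusted p = 0.0344), and mt-Tt, mt-Tg and mt-Tr were lower, at -0.76, -1.13 and -0.64. mt-Tr was lower in set LC too, at -0.57 ± 0.22 (adjusted p = 0.0167).

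**Figure D4:**
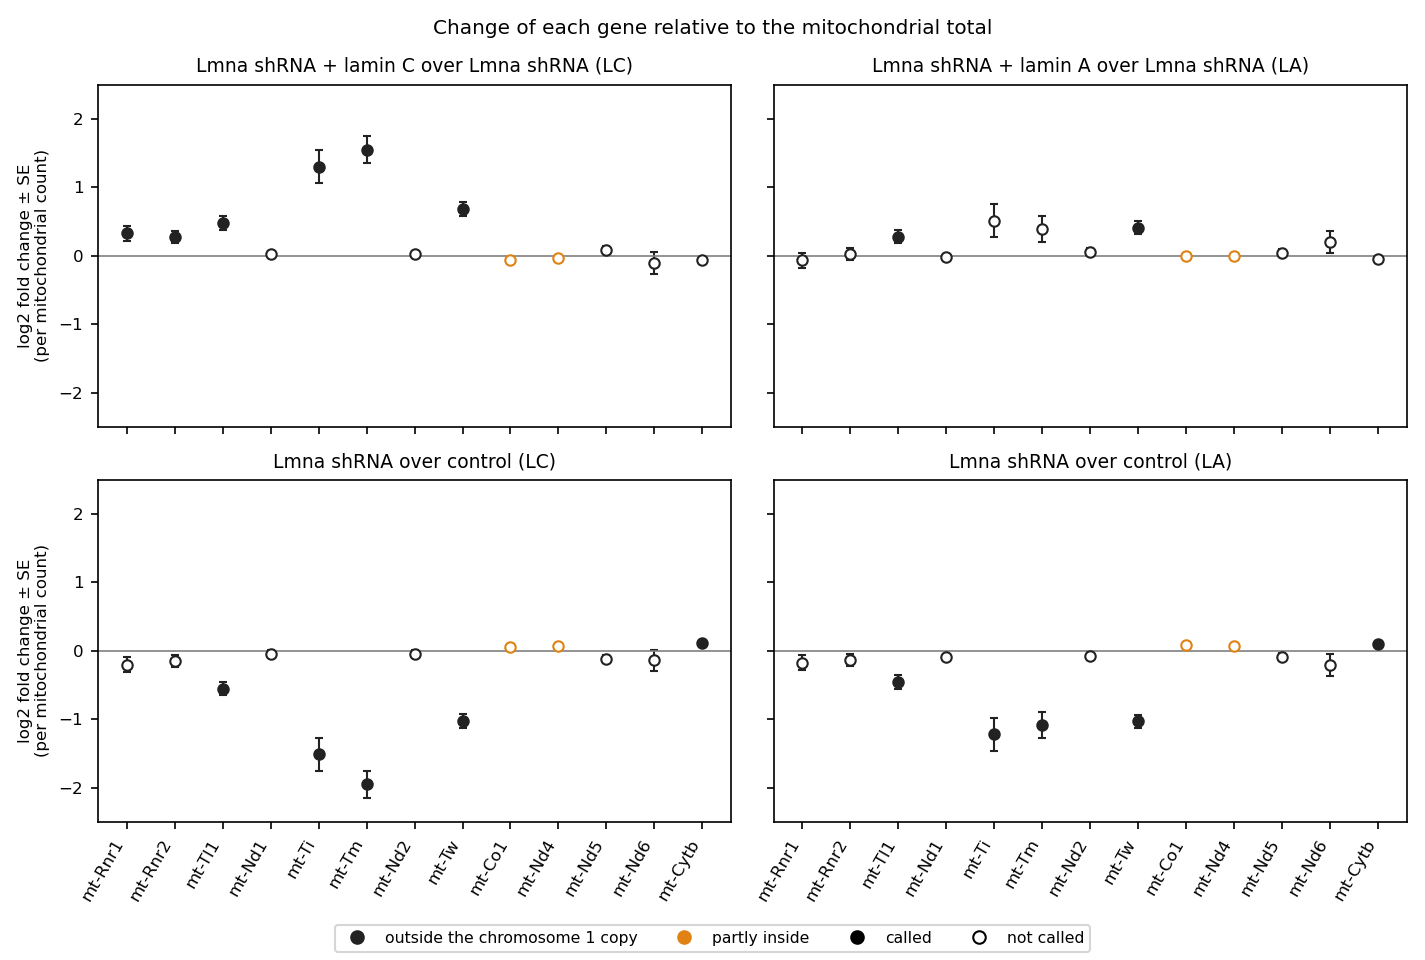
Log2 fold change (points) and standard error (bars) with each library scaled to its own mitochondrial total, for the mRNAs and rRNAs outside or partly in the stretch copied on chromosome 1 and the 4 most abundant tRNAs, in the same 4 comparisons; filled points have an adjusted p under 0.05. The mRNAs lie near 0, within -0.20 and 0.20, while mt-Tw, mt-Tm, mt-Ti and mt-Tl1 lie at -0.45 or below for shRNA-labelled over control hearts and at 0.28 or above for lamin over shRNA-labelled hearts.

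With a lamin added, 4 of the 14 tRNA rows were higher and 1 lower relative to the mitochondrial total with lamin C, and 3 were higher with lamin A. Of the 29 rows, 11 were higher and 1 lower in lamin C than in shRNA-labelled hearts, against 2.34% and 84.5% of all genes tested, and 5 were higher and 1 lower in lamin A hearts, against 0.761% and 80.4%. The mRNAs inside the copied stretch made up 5 of the 11 with lamin C. With lamin A they made up 2 of the 5 and the 1 that was lower. Their median was 1.04 with lamin C (-0.50 to 2.45) and 0.74 with lamin A (-0.62 to 2.25). mt-Tw rose by 0.68 ± 0.10 (adjusted p = 2.85e-06) with lamin C and 0.41 ± 0.10 (adjusted p = 0.00108) with lamin A, and mt-Tl1 by 0.48 ± 0.10 and 0.28 ± 0.10. The tRNA row that was lower with lamin C was mt-Tc, at -1.74 ± 0.80 (adjusted p = 0.0484), and the third that was higher with lamin A was mt-Tr, in the copied stretch, at 0.76 ± 0.21 (adjusted p = 0.00276). The mt-Tc call rests on very few reads, with 0 to 10 counts a library in lamin C hearts and 2 to 19 in shRNA-labelled hearts. mt-Tm rose with lamin C, by 1.55 ± 0.20 (adjusted p = 2.29e-07), and did not pass with lamin A, at 0.39 ± 0.19 (adjusted p = 0.059). mt-Ti likewise rose with lamin C, by 1.3 ± 0.24 (adjusted p = 4.03e-05), and stood at 0.51 ± 0.24 (adjusted p = 0.0572) with lamin A. The rRNAs rose with lamin C, by 0.33 ± 0.11 (adjusted p = 0.00645) for mt-Rnr1 and 0.27 ± 0.09 (adjusted p = 0.0111) for mt-Rnr2, and stood at -0.07 ± 0.11 and 0.02 ± 0.09 with lamin A. The difference between the lamin C and lamin A effects passed on this scale for mt-Tm, at 1.16 ± 0.27 (adjusted p = 0.00442), and mt-Atp6, at 1.65 ± 0.33 (adjusted p = 0.00122), against 1.84% of all genes tested that were higher. It did not pass for the other rows, mt-Rnr1 among them at 0.41 ± 0.15 (adjusted p = 0.054).

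Against controls, 1 row was higher and 3 were lower in lamin C hearts, against 17.9% and 0.436% of all genes tested, and 1 was higher and 7 were lower in lamin A hearts, against 67.1% and 2.67%. Both higher rows were mRNAs inside the copied stretch, as were 1 of the lower rows in lamin C hearts and 2 in lamin A hearts. mt-Tw was lower in both, at -0.34 ± 0.10 (adjusted p = 0.023) in lamin C hearts and -0.62 ± 0.10 (adjusted p = 1.66e-05) in lamin A hearts. mt-Tm was lower in lamin A hearts, at -0.69 ± 0.18 (adjusted p = 0.00184), and stood at -0.39 ± 0.18 (adjusted p = 0.128) in lamin C hearts. mt-Ts1, in the copied stretch, was lower in lamin C hearts, at -1.14 ± 0.39 (adjusted p = 0.046). The difference of these differences was called for 1 row, mt-Co2 in the copied stretch, at 1.68 ± 0.42 (adjusted p = 0.00568), against 1.06% of all genes tested that were higher.

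The mitochondrial rows hold so large a share of the counts that they bear on how libraries are scaled to each other. TMM factors were 0.917 to 0.956 in lamin C hearts, 1.16 to 1.18 in shRNA-labelled hearts and 0.862 to 0.876 in controls of set LC, and 1.01 to 1.04, 1.16 to 1.19 and 0.867 to 0.872 in lamin A, shRNA-labelled and control hearts of set LA. When the 37 rows were left out of the scaling, the median log2 fold change of the 7 mRNAs outside or partly in the copied stretch was -1.29 in set LC and -1.43 in set LA for shRNA-labelled against control hearts. It was 1.02 for lamin C and 0.78 for lamin A against shRNA-labelled hearts, and -0.21 for lamin C and -0.57 for lamin A against controls, with the same numbers of these 7 called as before. With library totals alone as the scale, the medians were -0.85, -0.96, 0.69, 0.55, -0.10 and -0.33 in that order of comparisons, and 6 rather than 7 of them were called for lamin A against control. The median of all genes tested then moved to 0.47 and 0.48 for shRNA-labelled against control hearts, -0.36 and -0.21 for lamin against shRNA-labelled hearts, and 0.11 and 0.26 for lamin against control hearts. Of the genes called for shRNA-labelled against control hearts, 81.2% were then higher in set LC and 82.4% in set LA, compared with 52.9% and 52.7% with TMM factors. For lamin over shRNA-labelled hearts, 20.2% and 17.1% of calls were higher, compared with 47.5% and 54.1%, and for lamin over control hearts 90.8% and 81.3%, compared with 58.9% and 52.2%. The direction of each of the 7 mRNAs was kept in all 6 comparisons under these scalings.

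Nuclear genes that serve the mitochondrial genome moved in the same direction as its transcripts. Of 74 genes in 5 lists, for transcription, replication, RNA processing, RNA modification and translation, 60 were lower and 6 higher in shRNA-labelled than in control hearts of set LC, with a median log2 fold change of -0.70, against 29.6% and 33.3% of all genes tested. In set LA 56 were lower and 6 higher, with a median of -0.64, against 29% and 32.4%. For transcription, 10 of 12 were lower in both sets. Polrmt, the mitochondrial RNA polymerase, changed by -0.86 ± 0.08 in set LC and -0.86 ± 0.08 in set LA, Tfam, which packs the mitochondrial genome and starts transcription with it, by -0.77 ± 0.07 and -0.62 ± 0.07, and Tfb2m, which opens the promoter, by -0.83 ± 0.06 and -0.79 ± 0.06. Mterf2, of the termination factor family, changed by -1.64 ± 0.10 and -1.58 ± 0.10. For replication and maintenance, 9 of 16 were lower in each set, among them Twnk, the helicase, at -1.10 ± 0.06 and -0.96 ± 0.06, and Mgme1, Mpv17 and Endog at between -1.35 and -0.74 in set LC and between -1.50 and -0.78 in set LA.

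For RNA processing and stability, 19 of 21 were lower in set LC and 17 in set LA, against 29.6% and 29% of all genes tested. Lrpprc, which binds and stabilises mitochondrial mRNAs, changed by -1.45 ± 0.07 in set LC and -1.36 ± 0.07 in set LA. Hsd17b10, a subunit of the enzyme that cuts the front end of tRNAs, changed by -1.0 ± 0.06 and -0.95 ± 0.06, Fastk, needed for the mt-Nd6 mRNA, by -1.33 ± 0.07 and -1.34 ± 0.07, and Ptcd2 by -0.92 ± 0.05 and -0.98 ± 0.05. Of 14 genes for rRNA and tRNA modification, 11 were lower in set LC and 9 in set LA, and the 4 named by smallest p, Trmt5, Mrm3, Nsun4 and Mto1, lay between -1.36 and -0.82 in set LC and between -1.35 and -0.73 in set LA. All 11 translation factors on the list were lower in both sets, among them Oxa1l, which inserts new proteins into the inner membrane, at -1.05 ± 0.06 and -1.06 ± 0.06, and Taco1, an activator of mt-Co1 translation, at -1.40 ± 0.10 and -1.35 ± 0.10. Gfm1 and Gfm2, the mitochondrial elongation and recycling factors, were at -0.99 ± 0.06 and -0.97 ± 0.06 in set LC, and at -0.90 ± 0.06 and -0.87 ± 0.06 in set LA.

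A few of these genes were higher, and they are named here after their values were seen. In set LC they were Mterf1b, Tk2, Primpol, Dna2, Pde12 and Rexo2, and in set LA Primpol, Dna2, Pde12, Rexo2, Nsun3 and Trit1. Dna2, a nuclease and helicase of the nucleus and the mitochondria, rose by 1.01 ± 0.22 in set LC and 0.95 ± 0.21 in set LA. Rexo2, which degrades short mitochondrial RNA fragments, rose by 0.44 ± 0.06 and 0.45 ± 0.06, and Pde12, which removes poly(A) tails from mitochondrial RNA, by 0.24 ± 0.08 and 0.42 ± 0.08.

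Over the same 74 genes, 53 were higher and 4 lower in lamin C than in shRNA-labelled hearts, with a median of 0.53, against 25.7% and 28.4% of all genes tested. In lamin A hearts 45 were higher and 1 lower, with a median of 0.27, against 16.1% and 13.7%. Against controls, 18 were lower in lamin C hearts, and 43 were lower and 3 higher in lamin A hearts, with medians of -0.16 and -0.28. Of all genes tested, 6.18% were lower in lamin C hearts, and 22.1% were lower and 24.1% higher in lamin A hearts. With library totals alone as the scale, 7 of the 74 genes were called in lamin C hearts in either direction, compared with 18 with TMM factors. On that scale 17.7% of all genes tested were called, and 90.8% of those were higher. The lamin C effect over shRNA-labelled hearts was larger than the lamin A effect for 23 and smaller for 1, against 8.84% and 9.9% of all genes tested. Polrmt rose by 0.76 ± 0.08 with lamin C and 0.49 ± 0.08 with lamin A, Tfam by 0.68 ± 0.07 and 0.38 ± 0.07, Tfb2m by 0.46 ± 0.06 and 0.28 ± 0.06, and Mterf2 by 1.34 ± 0.10 and 0.73 ± 0.10. Of the genes named by smallest p in these lists, the other 16 were each higher with both lamins, between 0.53 and 1.2 with lamin C and between 0.24 and 1.10 with lamin A. The named genes were picked by their change in shRNA-labelled hearts of set LC, which are also the baseline for lamin C. Their rise with lamin C is therefore not independent of that choice. Against controls, Polrmt stood at -0.10 ± 0.08 in lamin C and -0.37 ± 0.08 in lamin A hearts, Tfam at -0.08 ± 0.07 and -0.24 ± 0.07, and Lrpprc at -0.32 ± 0.07 and -0.80 ± 0.07. Of these, Polrmt and Tfam did not pass in lamin C hearts.

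The partner subunits from the nucleus are made in the cytosol and assemble with the 13 mitochondrial proteins. Of 75 nuclear subunits of complexes I, III, IV and V, 73 were lower and 1 higher in shRNA-labelled than in control hearts of set LC, with a median of -0.99, against 29.6% and 33.3% of all genes tested. In set LA 74 were lower and 1 higher, with a median of -0.96, against 29% and 32.4%. All 36 of complex I were lower in both sets, with medians of -1.04 and -1.02, and so were the 9 of complex III, at -1.04 and -0.93, and the 16 of complex V, at -0.93 and -0.92. The medians of the 7 mitochondrial mRNAs outside or partly in the copied stretch, -1.27 and -1.40, lay below these, and this difference between medians was not tested. Ndufs1, which holds iron-sulfur clusters of complex I, changed by -1.48 ± 0.07 in set LC and -1.39 ± 0.07 in set LA, and Ndufv1 and Ndufa10 were between -1.30 and -1.24 in set LC and between -1.27 and -1.24 in set LA. In complex III, Uqcrc1, a core subunit, changed by -1.40 ± 0.07 and -1.26 ± 0.07, with Uqcrfs1, Cyc1 and Uqcrc2 between -1.35 and -1.06 in set LC and between -1.29 and -0.91 in set LA. In complex V, Atp5a1 and Atp5b, the subunits of the catalytic head, changed by -1.21 ± 0.06 and -0.99 ± 0.05 in set LC and by -1.18 ± 0.06 and -0.97 ± 0.05 in set LA, and Atp5c1 and Atp5g1 were between -1.35 and -1.15 and between -1.21 and -1.16.

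Complex IV held the exception. Of its 14 nuclear subunits, 12 were lower in set LC and 13 in set LA, against 29.6% and 29% of all genes tested. Cox6a1, the isoform of most tissues other than heart and skeletal muscle, rose by 0.28 ± 0.07 (adjusted p = 0.00184) and 0.21 ± 0.07 (adjusted p = 0.0167). Its heart and muscle counterpart Cox6a2 fell, at -1.12 ± 0.06 (adjusted p = 7.68e-12) and -1.20 ± 0.06 (adjusted p = 3.93e-12). Cox7a1, another isoform of heart and muscle, changed by -1.81 ± 0.13 and -1.58 ± 0.13, the largest fall among the 75, while Cox4i1 and Cox5a were at -1.06 ± 0.06 and -1.10 ± 0.07 in set LC and -0.99 ± 0.06 and -1.03 ± 0.07 in set LA. Cox6a1 was named after its value was seen.

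Complex II has no mitochondrially encoded subunit, and its 4 nuclear genes were lower as well, with medians of -1.24 in set LC and -1.14 in set LA. Sdha, which holds the flavin, changed by -1.49 ± 0.06 and -1.38 ± 0.06, and Sdhb, Sdhc and Sdhd were between -1.36 and -1.02 and between -1.27 and -0.97. With lamin C and lamin A, all 4 were higher than in shRNA-labelled hearts, with medians of 1.01 and 0.55. Of the 75 subunits of the other complexes, 73 were higher and 1 lower with lamin C, with a median of 0.79, against 25.7% and 28.4% of all genes tested. With lamin A 71 were higher, with a median of 0.46, against 16.1%. Compared with controls, 23 of the 75 were lower in lamin C hearts and 72 in lamin A hearts, with medians of -0.20 and -0.50, against 6.18% and 22.1% of all genes tested. The lamin C effect over shRNA-labelled hearts was larger than the lamin A effect for 36 of the 75, with a median difference of 0.33, against 8.84% of all genes tested. Ndufs1 rose by 1.14 ± 0.07 with lamin C and 0.60 ± 0.07 with lamin A, Cox7a1 by 1.49 ± 0.13 and 0.93 ± 0.13, and Atp5a1 by 0.93 ± 0.05 and 0.48 ± 0.05. The other subunits named above, Cox6a1 apart, rose by between 0.76 and 1.16 with lamin C and between 0.36 and 0.73 with lamin A. Subunits named by smallest p were likewise picked in set LC, whose shRNA-labelled hearts are the baseline here for lamin C.

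**Figure D5:**
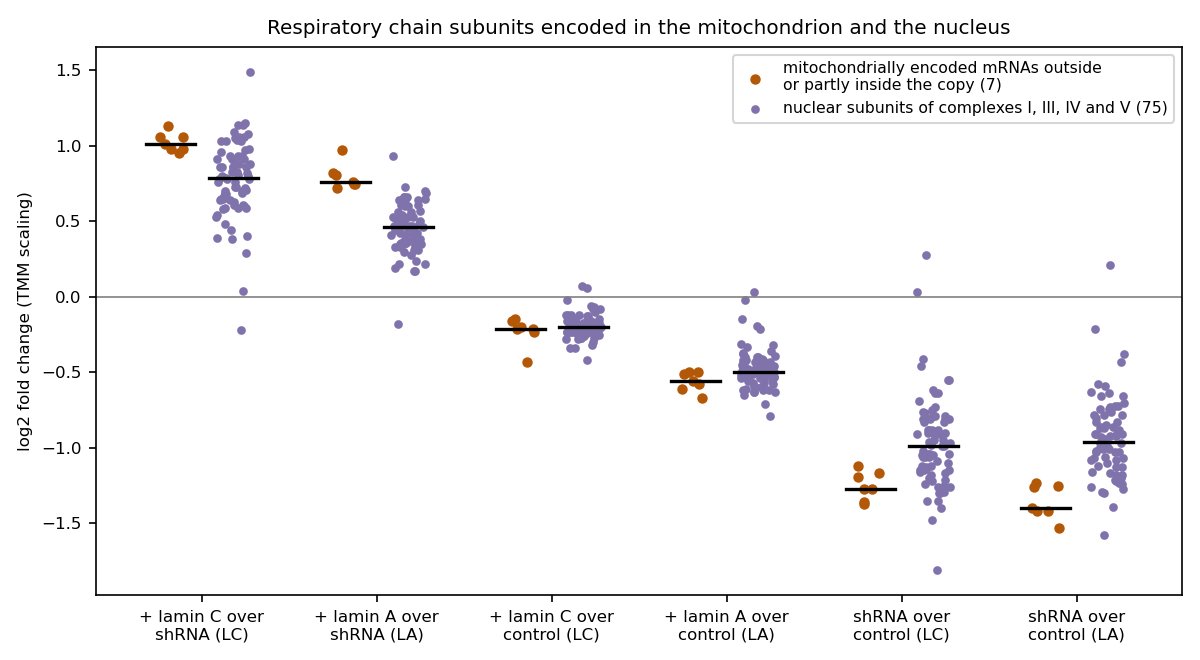
Log2 fold change of the 7 mitochondrial mRNAs outside or partly in the stretch copied on chromosome 1 and of the 75 nuclear subunits of complexes I, III, IV and V, with 1 point per gene and a line at the median, in the 6 comparisons between groups of 1 set. Both medians lie below 0 for shRNA-labelled over control hearts, at -1.27 and -0.99 in set LC and -1.40 and -0.96 in set LA, and above 0 for lamin over shRNA-labelled hearts, at 1.01 and 0.79 for lamin C and 0.76 and 0.46 for lamin A.

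Markers of the cell types of the heart moved with these results, and they were measured on the same scale. Of 12 cardiomyocyte markers, 11 were lower in shRNA-labelled than in control hearts in each set, against 29.6% of all genes tested in set LC and 29% in set LA. Their summed level was 73440 to 76210 CPM in lamin C hearts, 37990 to 42930 in shRNA-labelled hearts and 87320 to 91810 in controls of set LC, and 55160 to 57930 in lamin A hearts, 40160 to 42080 in shRNA-labelled hearts and 84320 to 87140 in controls of set LA. The groups of a set stood in the order of their mitochondrial shares and did not overlap. Pln, a regulator of the calcium pump, changed by -1.71 ± 0.07 in set LC and -1.70 ± 0.07 in set LA, and Tnni3, Myl2 and Myl3 of the contractile apparatus were between -1.82 and -1.24 and between -1.73 and -1.17. All 12 markers ranged from -1.82 to -0.15 in set LC and from -1.73 to 0.03 in set LA. The medians of the 7 mitochondrial mRNAs given above were -1.27 and -1.40. With lamin C 10 of the 12 were higher than in shRNA-labelled hearts and with lamin A 8, against 25.7% and 16.1% of all genes tested. Compared with controls, 5 were lower in lamin C hearts and 10 in lamin A hearts, against 6.18% and 22.1%.

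Of 10 fibroblast markers, 9 were higher in shRNA-labelled than in control hearts of each set, against 33.3% of all genes tested in set LC and 32.4% in set LA, and in set LA Gsn was lower. Their sum was 2948 to 3870 CPM in lamin C hearts, 6624 to 7535 in shRNA-labelled hearts and 2353 to 2847 in controls of set LC, and 5370 to 6368 in lamin A hearts, 6830 to 7471 in shRNA-labelled hearts and 2591 to 2832 in controls of set LA. Mfap5, Col1a2, Lum and Dcn, all matrix proteins, changed by between 1.46 and 3.58 in set LC and between 1.32 and 3.26 in set LA. Of 12 macrophage markers, 11 were higher in each set, against the same shares of all genes, and their sum was 771.2 to 920.2 CPM in lamin C hearts, 1701 to 1876 in shRNA-labelled hearts and 447.3 to 554.5 in controls of set LC, and 1442 to 1560 in lamin A hearts, 1628 to 1783 in shRNA-labelled hearts and 498.7 to 528.8 in controls of set LA. Lgals3 led them, at 6.54 ± 0.19 and 6.18 ± 0.19, with C1qa, C1qb and C1qc between 1.80 and 2.03 and between 1.81 and 1.96. The macrophage marker not called stood at -0.37 in set LC and the one not called in set LA at -0.09. With lamin C 9 fibroblast and 11 macrophage markers were lower than in shRNA-labelled hearts, and with lamin A 4 and 7, against 28.4% and 13.7% of all genes tested. Against controls, 7 fibroblast and 11 macrophage markers were higher in lamin C hearts, and 9 and 11 in lamin A hearts, against 8.87% and 24.1% of all genes tested that were higher in lamin C and lamin A hearts.

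Of 10 endothelial markers, 9 were lower in shRNA-labelled than in control hearts of set LC and 8 in set LA, against 29.6% and 29% of all genes tested, and Vwf was higher in both. Their sum was 1287 to 1298 CPM in lamin C hearts, 913.6 to 1084 in shRNA-labelled hearts and 1404 to 1593 in controls of set LC, and 1379 to 1428 in lamin A hearts, 1119 to 1160 in shRNA-labelled hearts and 1543 to 1634 in controls of set LA. Kdr, Tie1, Cdh5 and Emcn changed by between -1.26 and -0.48 in set LC and between -0.95 and -0.44 in set LA. No marker of these lists was at 0 in any group. The part of these shifts in the mitochondrial results was not tested.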

How the data were processed

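The 18 libraries came from separate hearts, 3 a group. Gene counts and FPKM values were deposited by the authors in separate tables, each with every gene's chromosome and position. Of the library columns in these tables, 0 belonged to no sample. The submitters' processing notes list HISAT2 2.0.5, featureCounts 1.5.0-p3, StringTie 1.3.3b, DESeq2 1.20.0 and mm10, without roles, and neither they nor the labels say how counting treated strand or reads that fit several places. Deposited counts were tested with edgeR 4.0.16 (R 4.3.3), quasi-likelihood F test, TMM factors, filterByExpr, all 18 libraries in 6 groups, no replicate block, and 12 residual degrees of freedom; the biological coefficient of variation was 9.13%. Of 54532 rows 17876 were tested, with Benjamini-Hochberg adjustment over them, and a gene was called at an adjusted p under 0.05. A standard error is the log2 fold change divided by the square root of F. Composition was tested with the mitochondrial total as library size. Near-identical nuclear copies were found by BLAST 2.17.0 among GENCODE transcripts. Replicates differed beyond sampling noise (chi-square per degree of freedom 5.98 to 39.3), so none was a duplicate. Alternatives used DESeq2 1.42.0, limma 3.58.1 on log2 (FPKM + 1) and log2 (FPKM + 0.1), other scalings, no filter, a replicate block and libraries left out. The fits were tested on simulated data.

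The genes and lists were chosen with earlier results of these data known. All mRNAs and rRNAs were named with values, as were the 4 tRNAs of highest mean CPM, any tRNA called where at most 4 were, and up to 4 genes per nuclear list with the smallest p in set LC for shRNA-labelled against control hearts. Not every gene that this rule names is reported here. P-values weigh each difference against the spread between libraries of a group, which was estimated over all 6 groups together.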

Additional observations from a re-analysis of the deposited data

Results flagged for a closer look

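Rows are given here because the effect of lamin C differed from that of lamin A when the difference itself was tested by edgeR, each lamin within its own set. For the effects over shRNA-labelled hearts, the lamin C minus lamin A difference in log2 fold change was 0.71 for mt-Rnr1 (adjusted p = 0.00214), 0.55 for mt-Rnr2 (adjusted p = 0.00423) and 0.48 for mt-Tl1 (adjusted p = 0.0176). It was 1.45 for mt-Tm (adjusted p = 0.00152), 0.56 for mt-Tw (adjusted p = 0.00662) and 1.89 for mt-Atp6 (adjusted p = 0.00256).

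For the effects over controls, the difference was 0.75 for mt-Rnr1 (adjusted p = 0.00197), 0.61 for mt-Rnr2 (adjusted p = 0.00301), 0.47 for mt-Tl1 (adjusted p = 0.0188) and 0.66 for mt-Tw (adjusted p = 0.0024). Of the mRNAs, it was 0.46 for mt-Nd1 (adjusted p = 0.0104), 0.37 for mt-Nd2 (adjusted p = 0.0437), 0.29 for mt-Co1 (adjusted p = 0.0495) and 2.05 for mt-Co2 (adjusted p = 0.00631). It was 0.34 for mt-Nd4 (adjusted p = 0.0256), 0.38 for mt-Nd5 (adjusted p = 0.0251) and 0.36 for mt-Cytb (adjusted p = 0.0172). mt-Atp6 and mt-Co2 lie in the stretch copied on chromosome 1. The amount of Lmna RNA, the kind of lamin and the set cannot be told apart in these differences.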

How the results depend on the processing

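With each library scaled to its mitochondrial total, the number of the 29 rows called was 10 and 12 for shRNA-labelled against control hearts in sets LC and LA, 12 and 6 for lamin C and lamin A against shRNA-labelled hearts, 8 for lamin A against control, and 2 and 1 for the differences between the lamin effects over shRNA-labelled hearts and over controls; fewer calls follow from that scale itself, which removes the change the transcripts share. For lamin C against control, the count of 5 was 3 with library totals alone, 8 when the compared groups were fitted alone, 17 with no filter, 1 on log2 (FPKM + 1) and on log2 (FPKM + 0.1), and 1 without the third control of each set. The animal numbers of those controls adjoin each other across the sets and stand apart from the rest. On log2 (FPKM + 1) with no filter the count for lamin C against control was 1, with 12 for lamin A against shRNA-labelled hearts, 11 for lamin A against control and 2 for the difference over controls. The difference over controls, 11 rows in the report, gave 5 with library totals alone, 19 with no filter and 6 on log2 (FPKM + 0.1); that over shRNA-labelled hearts, 6 rows, gave 10 with DESeq2 and 18 with no filter; and the difference of the shRNA effects gave 5 with no filter. The cause of these other moves was not tested. With library totals alone, 7 of the 74 nuclear genes that serve the mitochondrial genome were called for lamin C against control, 11 for the difference of lamin effects over shRNA-labelled hearts and 9 for that over controls. The shares of all genes tested that were called in either direction were then 17.7%, 20.5% and 17.1%.

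The mitochondrial share was 23.2% in lamin C hearts, 24.6% in controls of set LC and 25.9% in controls of set LA with mRNA rows alone, and 24.6% and 25.9% in those controls without the rRNAs. As a share of summed FPKM, it was 44.2%, 29.0% and 46.4% in lamin C, shRNA-labelled and control hearts of set LC, and 40.4%, 29.5% and 48.4% in lamin A, shRNA-labelled and control hearts of set LA. The part of mt-Co1 was 38.5%, 40%, 38.8%, 39.4%, 39.7% and 37.7% of mRNA counts in that order of groups, and 30.6%, 32.6%, 31%, 31.9%, 32.4% and 30% of mitochondrial FPKM.

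Leaving out each library in turn gave 23 to 23 rows for shRNA-labelled against control hearts in set LC and 23 to 25 in set LA, 20 to 22 for lamin C and 18 to 20 for lamin A against shRNA-labelled hearts, 2 to 7 for lamin C and 16 to 19 for lamin A against control, and 0 to 0, 5 to 13 and 6 to 12 for the differences of the shRNA effects, the lamin effects over shRNA-labelled hearts and those over controls. The shares were 23.7% to 24.5%, 13.9% to 15.2% and 25.3% to 25.4% in lamin C, shRNA-labelled and control hearts of set LC, and 20.7% to 21.8%, 14.1% to 14.6% and 26.6% to 26.9% in lamin A, shRNA-labelled and control hearts of set LA. Of 1368 single-gene values from fits with a library left out, 1289 kept their side of the threshold, 52 lost a call and 27 gained one; of 1986 under the other settings, 1832, 79 and 75 did, and 0 in either set reversed. Replicate numbers did not pair the samples: of 18 same-numbered pairs, 0 had deviations correlated above 0.1 (-0.046 to 0.062), and with a replicate block the counts were 23, 24, 21, 20, 5 and 19 for the 6 comparisons in the order above and 0, 7 and 12 for the differences, so the block moved no count by more than 1. Of the 22 tRNA rows, 8 had too few counts to be tested.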
